A study of Homo sapiens with 4 samples.

Results

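The genes described here encode proteins that hold epithelial cells to one another: the claudins CLDN1, CLDN2, CLDN3, CLDN4 and CLDN7, the tight junction proteins OCLN, TJP1 and F11R, and the cadherins CDH1 and CDH17. They were chosen by name, as 10 of the 19729 genes in the deposited tables, and all 10 had a value above 0 in at least 1 library. RNA was sequenced from HT-29 cells, a human colorectal cancer line that the labels describe as MSS (microsatellite stable), BRAF-V600E and APC-mutant, after stable lentiviral transduction with an shRNA against APC or a non-silencing control shRNA (NonS). Both hairpins were induced with doxycycline (DOX), 500 ng/ml for 72 h, so the NonS cells received DOX as well. The cells were at passage 3 to 5 after transduction, 1 hairpin represents each condition, and each condition has 2 libraries (I and II) that the study calls biological duplicates. The comparison asks which transcripts differ once the truncated APC that HT-29 cells retain is silenced.

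Tight junctions seal the space between neighbouring epithelial cells near their apical side. Claudins form the strands of the seal and set which ions pass, OCLN and F11R are further membrane proteins of the junction, and TJP1 ties these to the actin cytoskeleton. Below them lie adherens junctions, where CDH1 (E-cadherin) binds its like on the next cell and holds β-catenin at the membrane. β-catenin that is not held there or destroyed with the help of APC is the effector of canonical Wnt signaling. CDH17 (liver-intestine cadherin) is an adhesion protein of intestinal epithelium.

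Each library comes with 1 whole number per gene, termed the value below. The values are treated as a score and not as reads, because replicates differed less than read counts would, with a variance of 0.474 times the Poisson expectation in NonS and 0.345 times in APC shRNA libraries. Multiplied by transcript length in kb, the values of a library summed to nearly the same number in all 4 libraries (mean 982856, coefficient of variation 0.227%). From this the values appear to be per length already, although their scale is not stated. Read depth is therefore unknown, and a value of 1 to 10 carries a large rounding error.

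APC itself had a value of 3 in NonS I and was listed at 0 in NonS II and in both APC shRNA libraries. At this level the targeted gene does not check the labels. The study reports silencing of APC mRNA in HT-29 cells, and of the protein by immunoblot. Its own comparison, DESeq2 on read counts, lists APC as lower at its thresholds (fold over 4, adjusted p under 0.01). AXIN2 and NOTUM, among the Wnt targets that the study names, were chosen after their values were seen. AXIN2 had values of 16 and 22 in NonS libraries and of 124 and 178 in APC shRNA libraries, and NOTUM had 1 and 1 against 108 and 168. All 10 colon epithelium markers examined were above 0 in at least 1 library (summed value 4299 and 5330 in NonS, 4690 and 4868 in APC shRNA libraries), although CDX2 was listed at 0 in both NonS libraries. Of 15 markers of fibroblasts, endothelium, leukocytes, liver and muscle, 13 were at 0 in every library, and only CD14 and CD68 were above 0 (summed value of the list 8 and 10 in NonS, 4 and 5 in APC shRNA libraries).

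Sequences before the transcription starts are shown for the members that hold an E-box of the form CAGGTG, the motif to which SNAIL and ZEB repressors bind and which the opposite strand reads as CACCTG. RefSeq gave 13 windows of 250 bases before a start for 7 of the 10 genes (GRCh38.p14), and the windows of CDH1, F11R and CDH17 were not examined here. CAGGTG lay in 4 of these windows, in CLDN7, OCLN and TJP1, against 17.5% of 35116 windows of the same length over all genes. The TCF motifs CTTTGAT and CTTTGAA, each read on both strands, lay in none of the 13 windows and in 2.26% and 3.8% of all windows. Stretches around the matches are given 5′ to 3′ on the strand of the gene, with the E-box in capitals:
CLDN7, chr17:7262632-7262661, minus strand: cttcctcctCACCTGggcaaggaggggtgg
CLDN7, chr17:7262593-7262622, minus strand: cttccggttCAGGTGagtgtcccttcggtg
CLDN7, chr17:7262479-7262507, minus strand: acatatactCAGGTGcgcccCACCTGtcc
OCLN, chr5:69492505-69492534, plus strand: tccgagtttCAGGTGaattggtcaccgagg
OCLN, chr5:69492648-69492677, plus strand: aggacgcagCAGGTGggactcgcggcgctg
TJP1, chr15:29969117-29969146, minus strand: gccggcgcgCAGGTGgcccggcctcgccca

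The 4 matches of CLDN7 began 174, 135, 20 and 9 bases before 1 of its 2 starts, in a window that lies inside the gene with all 250 bases in annotated exons, and the window of the other start held none. Those of OCLN began 33 and 133 bases before 2 different starts, in windows with 250 and 120 bases in annotated exons. The match of TJP1 began 88 bases before 1 of its 4 starts, and the windows of the other starts held none. For contrast, the window before the inner start of CLDN2, the claudin with the smallest p below, holds none of the 3 motifs:
CLDN2, chrX:106918110-106918359, plus strand: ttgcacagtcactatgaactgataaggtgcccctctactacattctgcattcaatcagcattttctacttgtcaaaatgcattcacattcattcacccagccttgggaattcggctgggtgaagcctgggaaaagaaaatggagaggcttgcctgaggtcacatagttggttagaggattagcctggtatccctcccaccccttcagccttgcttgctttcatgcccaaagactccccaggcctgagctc

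A match describes letters in a window, and no binding was measured here. The motifs were chosen after values of these genes had been seen.

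Differences were tested with limma on log2(value + 1) in the 5376 genes whose mean value reached 10, and a gene was called at an adjusted p (Benjamini-Hochberg over all genes tested) under 0.05. Of the 10 junction genes 7 reached that mean, and 0 were called higher and 0 lower upon APC silencing, against 4.33% of all genes tested called higher and 3.7% called lower. One of the 7 (CLDN2) had an unadjusted p under 0.05, as did 1912 of all genes tested. Libraries of the conditions did not overlap in 4 of the 7 genes: 1 gene lay wholly above NonS upon APC silencing (33% of all genes tested) and 3 lay wholly below (27.5% of all). The median log2 difference of the 7 was -0.25, and that of all genes tested was 0.03. In these bulk RNA samples, fewer cells that express a gene and less RNA per cell cannot be told apart. With 2 libraries against 2, the smallest two-sided p of an exact permutation test is 0.333.

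**Figure D1:**
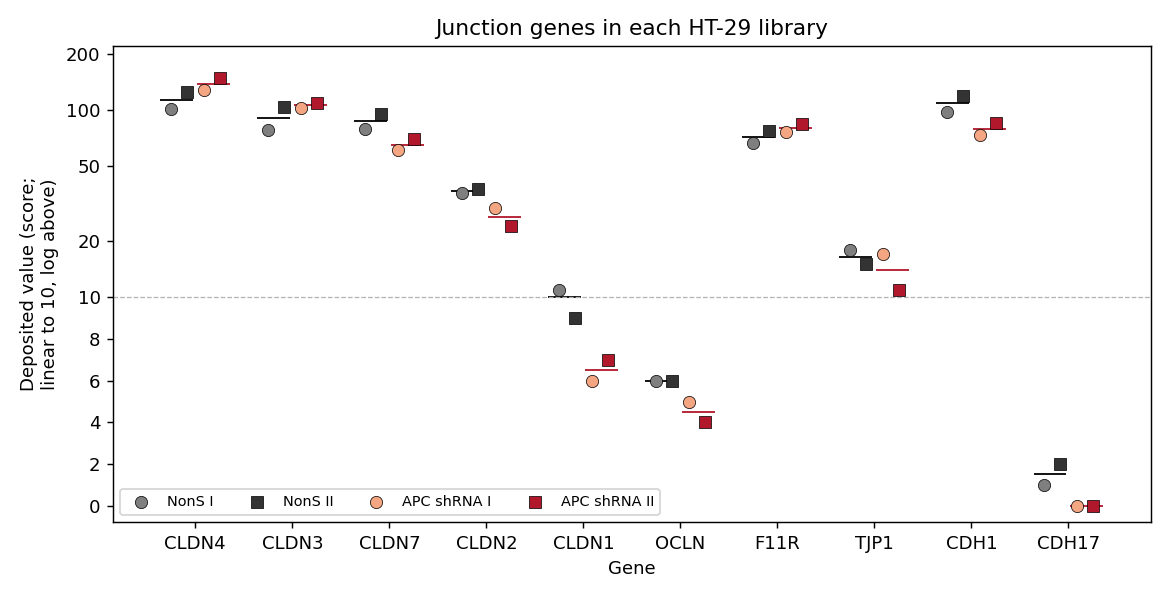
Deposited value (score, linear up to 10 and logarithmic above) of the 10 junction genes in the 4 HT-29 libraries. Points are single libraries and bars are means of 2. CLDN4 lies higher in both APC shRNA libraries, and CLDN1, CLDN2, CLDN7, OCLN, CDH1 and CDH17 lie lower in both.

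CLDN4 and CLDN3, a pair of sealing claudins and receptors of Clostridium perfringens enterotoxin, had the highest means among claudins, although CLDN7 lay above CLDN3 in NonS I. CLDN4 (chromosome 7, 73799542-73832693, GRCh38) had values of 101 and 125 in NonS libraries and of 128 and 148 in APC shRNA libraries. The groups of CLDN4 did not overlap, but the lowest APC shRNA value exceeded the highest NonS value by less than the replicates of either group differed. Its log2 difference was 0.29 (SE 0.16, 95% interval -0.19 to 0.77, limma adjusted p = 0.276), with 122% of the NonS mean. CLDN3 (chromosome 7, 73768997-73770270) had values of 78 and 104 in NonS libraries and of 103 and 109 in APC shRNA libraries. These overlapped, since NonS II lay between both APC shRNA libraries and only NonS I stood apart. The log2 difference of CLDN3 was 0.23 (SE 0.17, 95% interval -0.31 to 0.77, adjusted p = 0.4). Transcripts of CLDN3 are rich in G and C (69.2%), and its log2 difference was 0.03 after a correction for GC content. The 2 genes are neighbours on opposite strands with a gap of 29.3 kb.

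CLDN7, a claudin that also lies along the basolateral membrane of intestinal epithelium, was lower in both APC shRNA libraries. Its values (chromosome 17, 7259903-7263983) were 79 and 95 in NonS libraries and 61 and 70 in APC shRNA libraries, 75.3% of the NonS mean. The log2 difference of CLDN7 was -0.40 (SE 0.14, 95% interval -0.84 to 0.03, adjusted p = 0.159). The E-boxes shown above for CLDN7 are 4 of the 7 matches found among the junction genes. Exons of CLDN7 share 269 bases with AC003688.1 on the same strand and 38 bases with ELP5 on the opposite strand, so reads there could be assigned to more than 1 gene.

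CLDN2 forms pores for small cations and makes epithelia leaky. Its values (chromosome X, 106900164-106930861) were 36 and 38 in NonS libraries and 30 and 24 in APC shRNA libraries. Both APC shRNA libraries lay below both NonS libraries, which were nearly equal. Exons of CLDN2 share 341 bases with RIPPLY1 on the opposite strand. With 73% of the NonS mean, the log2 difference of CLDN2 was -0.45 (SE 0.14, 95% interval -0.87 to -0.03), and its adjusted p of 0.13 in limma was the lowest of the 7 genes tested.

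CLDN1, a sealing claudin best known from the barrier of the skin, had values of 11 and 9 in NonS libraries and of 6 and 7 in APC shRNA libraries (chromosome 3, 190305701-190322475). Its groups did not overlap, but its mean did not reach 10. In a wider fit of the 12799 genes with any value above 0, in which 7.44% of genes were called higher and 4.02% lower, CLDN1 had a log2 difference of -0.55 (SE 0.15, adjusted p = 0.174). None of the 10 junction genes was called in that fit. Calls of low genes in it rest on rounded values: GRHL1, a gene outside the rule for naming that was picked after its values were seen, was called with 4 and 4 in NonS against 3 and 3 in APC shRNA libraries (adjusted p = 0.00257).

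The remaining membrane proteins of the tight junction differed by small steps, none of them called. OCLN (occludin; chromosome 5, 69492292-69558104) had values of 6 in both NonS libraries and of 5 and 4 in APC shRNA libraries. That is a step of 1 or 2 whole numbers, and the wider fit gave a log2 difference of -0.35 (SE 0.12, adjusted p = 0.221). F11R, the junctional adhesion molecule JAM-A (chromosome 1, 160995211-161021348), had values of 67 and 77 in NonS libraries and of 76 and 84 in APC shRNA libraries. The groups of F11R overlapped by 1 unit of value, and its log2 difference was 0.15 (SE 0.11, 95% interval -0.19 to 0.49, adjusted p = 0.383). The exons of F11R share 1853 bases with AL591806.3 on the same strand.

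TJP1 (ZO-1), the scaffold below the strands, had values of 18 and 15 in NonS libraries and of 17 and 11 in APC shRNA libraries (chromosome 15, 29699367-29968865). The groups overlapped, and only APC shRNA II lay below both NonS libraries. Its log2 difference was -0.25 (SE 0.26, 95% interval -1.05 to 0.55, adjusted p = 0.531). Without APC shRNA II the difference was 0.046, so its sign rests on that library.

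CDH1 was the member with the second highest NonS value after CLDN4 (chromosome 16, 68737225-68835548). Values of CDH1 were 98 and 119 in NonS libraries and 74 and 85 in APC shRNA libraries. Both APC shRNA libraries lay below both NonS libraries, at 73.3% of the NonS mean. The log2 difference was -0.44 (SE 0.15, 95% interval -0.89 to 0.01, adjusted p = 0.145), and exons of CDH1 share 347 bases with the antisense transcript AC099314.1.

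CDH17 (chromosome 8, 94127171-94217303) had values of 1 and 2 in NonS libraries and was listed at 0 in both APC shRNA libraries. Since such values lie at the lowest step of the scale, no fold is given here. The study's own comparison, DESeq2 on read counts, lists CDH17 as lower at its thresholds (fold over 4, adjusted p under 0.01). In the wider fit the log2 difference of CDH17, which depends on the added 1, was -1.29 (SE 0.26, adjusted p = 0.125). CDH17 made up 1.01% and 1.65% of the summed CDH1 and CDH17 value in NonS libraries and 0% in both APC shRNA libraries (exact two-sided permutation p = 0.333, the smallest possible).

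**Figure D2:**
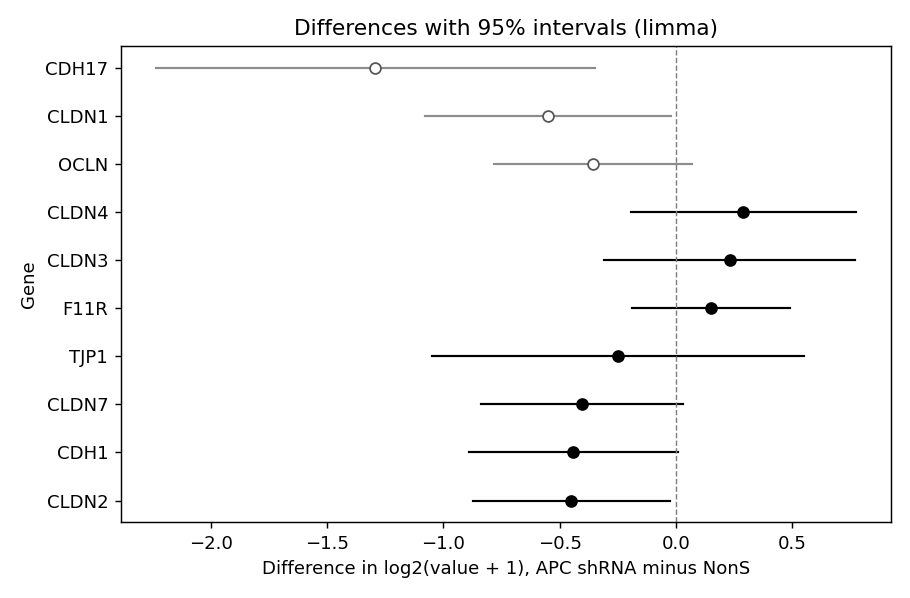
Difference in log2(value + 1), APC shRNA minus NonS, with 95% intervals from limma (2 libraries per condition). Filled points are the 7 genes tested, and open points are CDH17, CLDN1 and OCLN from the wider fit of 12799 genes. Only CLDN2, among the filled points, has an interval that leaves out 0, and no gene passed the adjusted threshold.

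Libraries with the same number shared a shift across conditions. CLDN3, CLDN4, CLDN7, F11R and CDH1, 5 of the 7 genes tested, were higher in library II than in library I in both conditions. The share of each claudin in the claudin sum of its own library is independent of any scaling of a whole library. Shares were not corrected for GC content. With that correction the log2 differences were 0.028 for CLDN3, 0.203 for CLDN4, -0.496 for CLDN7 and -0.520 for CLDN2. The claudin sum was 325 and 388 in NonS libraries and 348 and 376 in APC shRNA libraries, with overlap. Of 24 claudin genes listed 10 were above 0 and 14 were at 0 in every library.

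Within this sum the shares of single claudins lay apart in opposite directions. CLDN4 made up 31.1% and 32.2% in NonS libraries and 36.8% and 39.4% in APC shRNA libraries, a gain of 6.42 percentage points. CLDN7 made up 24.3% and 24.5% in NonS libraries and 17.5% and 18.6% in APC shRNA libraries, a difference of -6.32 points. Both differences exceeded the spread between replicates, with SDs (n = 2) of 0.806 and 1.82 points for CLDN4 and of 0.125 and 0.77 points for CLDN7 in NonS and APC shRNA libraries. CLDN3 had shares of 24% and 26.8% in NonS libraries and of 29.6% and 29% in APC shRNA libraries. CLDN2 had 11.1% and 9.79% against 8.62% and 6.38%, and CLDN1 had 3.38% and 2.32% against 1.72% and 1.86%. None of these 5 shares overlapped between conditions. By value, 33% of all genes tested lay wholly above NonS and 27.5% wholly below. Among the low claudins, shares of CLDN15 and CLDN23 did not overlap either, and those of CLDN9, CLDN11 and CLDN12 did. Each of the 5 shares reached p = 0.333 in the exact two-sided permutation test, the smallest value that 2 against 2 libraries allow. Shares of 1 sum are not independent of each other.

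Ratios between 2 claudins, picked after the shares had been seen, put the same values side by side. CLDN4 over CLDN7 was 1.28 and 1.32 in NonS libraries and 2.1 and 2.11 in APC shRNA libraries. CLDN4 over CLDN3 was 1.29 and 1.2 in NonS libraries and 1.24 and 1.36 in APC shRNA libraries, with overlap (exact two-sided permutation p = 0.667).

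**Figure D3:**
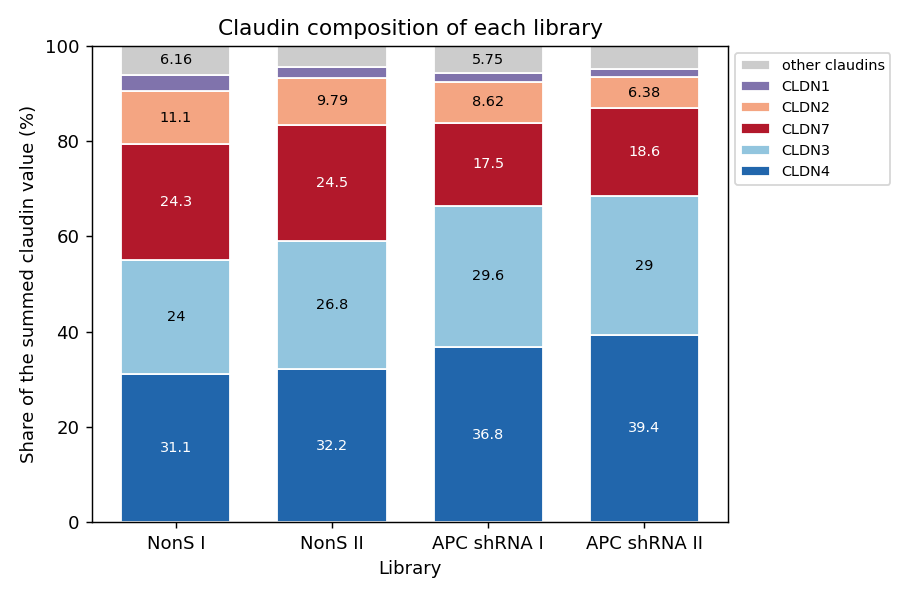
Share of each claudin in the summed claudin value of a library, in percent. Each bar is 1 library. CLDN4 and CLDN3 take larger shares upon APC silencing, without overlap, and CLDN7, CLDN2 and CLDN1 take smaller ones. The shares are not corrected for GC content.

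The order of the levels, on the deposited scale, differed between conditions in the upper ranks. In NonS cells the means ran from CLDN4 (113) over CDH1 (108), CLDN3 (91), CLDN7 (87), F11R (72), CLDN2 (37), TJP1 (16.5), CLDN1 (10) and OCLN (6) down to CDH17. The ranges of CLDN4 and CDH1, of CDH1 and CLDN3, and of CLDN3 and CLDN7 overlapped. Within a library CLDN4 lay above CDH1 and CDH1 above CLDN3 in both NonS libraries, whereas CLDN3 and CLDN7 changed places. In APC shRNA cells the order was CLDN4 (138), CLDN3 (106), F11R (80), CDH1 (79.5), CLDN7 (65.5), CLDN2 (27), TJP1 (14), CLDN1 (6.5), OCLN (4.5) and CDH17 (listed at 0). There F11R and CDH1 were the only neighbours with overlapping ranges, and they too changed places between libraries. CDH1 stood at rank 2 in NonS and at rank 4 in APC shRNA cells. If the values were not yet per length and were divided by it, CLDN3 would stand first and CLDN7 second in both conditions.

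Other genes of cell junctions came from 5 lists with 89 genes, of which 52 were above 0 and 26 were tested. None of the 26 was called by limma in either direction, against 4.33% of all genes tested called higher and 3.7% called lower. An unadjusted p under 0.05 was found in 7 of the 26 and in 1912 of the 5376 genes tested. Of the 26, 9 lay wholly above NonS (33% of all genes tested), 9 lay wholly below (27.5% of all), and 8 overlapped. The median log2 difference of the 26 was -0.08.

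Of 20 other claudins 6 were above 0 and 1 was tested. CLDN12, a claudin without the usual PDZ-binding end, had values of 14 and 9 in NonS libraries and of 11 and 7 in APC shRNA libraries. CLDND1, a claudin-domain protein, had 5 and 4 against 4 and 4. CLDN15, a cation pore of the intestine, had 3 and 3 against 5 and 4. These claudins stayed far below CLDN4, CLDN3 and CLDN7 in every library.

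Of 30 further tight junction genes 24 were above 0 and 9 were tested, with a median log2 difference of -0.13. LSR, which seals corners where 3 cells meet, had values of 139 and 171 in NonS libraries and of 130 and 147 in APC shRNA libraries. YBX3 (ZONAB), a DNA-binding partner of TJP1, had 83 and 80 against 69 and 78. SYMPK, which also acts in mRNA 3′ end formation, had 26 and 26 against 29 and 27. AMOTL2, a junction-associated angiomotin, had the highest log2 difference of the 26 genes and was picked after its values were seen. Its values were 9 and 13 in NonS libraries and 27 and 32 in APC shRNA libraries, 268% of the NonS mean (log2 difference 1.36, SE 0.22, limma adjusted p = 0.0616).

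Adherens junction genes, the partners of CDH1, were tested in 9 of 12 cases, with a median log2 difference of 0.07. JUP (plakoglobin), which links cadherins to the cytoskeleton, had values of 119 and 132 in NonS libraries and of 157 and 148 in APC shRNA libraries (log2 difference 0.28, SE 0.09, limma adjusted p = 0.13). CTNND1 (p120-catenin), which keeps cadherins at the membrane, had 81 and 92 against 101 and 112 (adjusted p = 0.164). CTNNA1 (α-catenin) had 91 and 95 against 95 and 96, and NECTIN2 had 108 and 130 against 118 and 132. JUP and CTNND1 thus lay higher in both APC shRNA libraries, where CDH1 lay lower. CTNNB1 (β-catenin), outside the rule for naming, had 44 and 45 against 53 and 60 (log2 difference 0.34, SE 0.09, adjusted p = 0.104).

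Among 14 other cadherins 4 were above 0 and 1 was tested. FAT1, a giant protocadherin, had values of 52 and 55 in NonS libraries and of 64 and 35 in APC shRNA libraries, which placed the NonS libraries between those of APC shRNA. CDH3 (P-cadherin), which lies 14.6 kb from CDH1 on the same strand, had 4 and 4 against 9 and 10. Its mean was under 10, and its log2 difference in the wider fit was 1.07 (SE 0.06, limma adjusted p = 0.0147). CDH3 was the only gene of the 5 lists called there, against 7.44% of all genes called higher and 4.02% lower. The call rests on low rounded values. CDH3 made up 3.92% and 3.25% of the summed CDH1 and CDH3 value in NonS libraries and 10.8% and 10.5% in APC shRNA libraries, a sum formed after its values were seen. CELSR1, of planar cell polarity, had 2 and 4 against 4 and 5. CDHR5, a protocadherin of the brush border, had 3 and 6 against 1 and 2.

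Desmosomes anchor keratin filaments, and 6 of their 13 genes were tested, with a median log2 difference of -0.03. Of the 6, 3 lay wholly above NonS (33% of all genes tested) and 3 wholly below (27.5% of all). PKP4 (p0071), an armadillo protein of adherens junctions and desmosomes, had values of 32 and 34 in NonS libraries and of 50 and 58 in APC shRNA libraries (log2 difference 0.69, SE 0.10, limma adjusted p = 0.0576). PKP3, another plakophilin, had 41 and 55 against 31 and 36. PERP, a desmosomal membrane protein induced by p53, had 42 and 49 against 55 and 86. DSP (desmoplakin) had 28 and 28 against 45 and 29, so its higher mean rests on APC shRNA I.

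**Figure D4:**
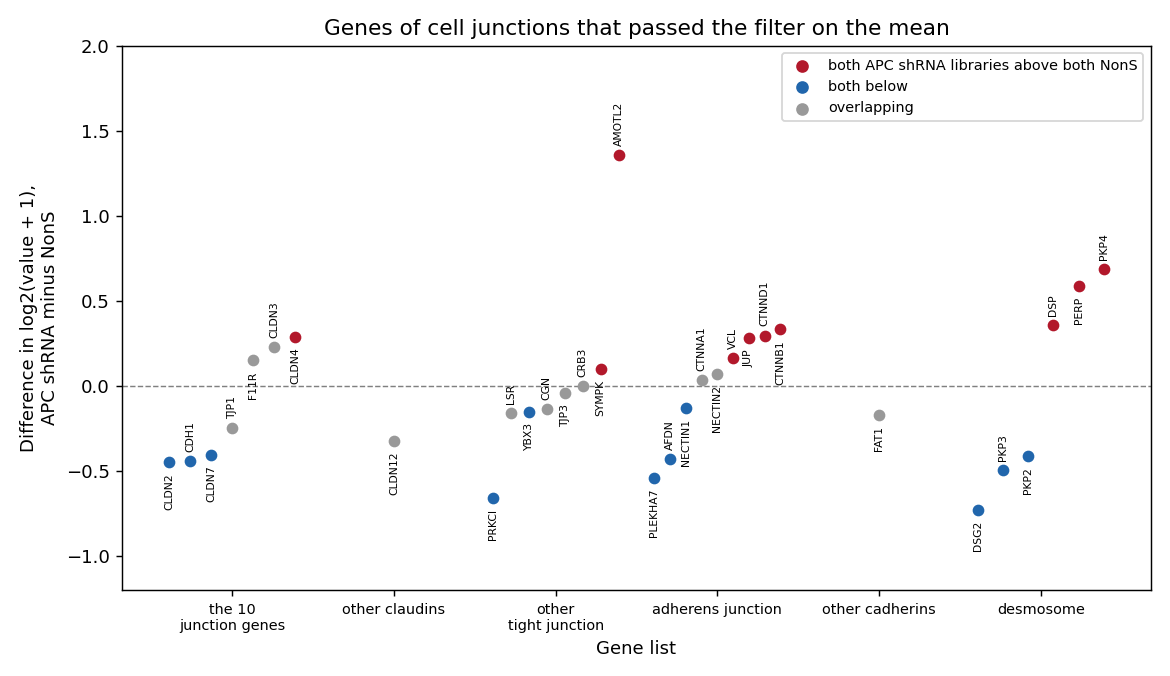
Difference in log2(value + 1), APC shRNA minus NonS, of the 7 junction genes tested and of tested genes from 5 lists of cell junction genes, with 1 of the 26 not shown. Each point is 1 gene, and colour gives whether the libraries of the conditions overlap. AMOTL2 lies highest at 1.36 and DSG2 lowest at -0.72, and none of the genes shown was called.

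Regulators of CDH1 were examined in a list of 17 epithelial factors and repressors, of which 10 were above 0 and 4 were tested. None of the 4 was called, against 4.33% of all genes tested called higher and 3.7% called lower. ESRP1 and ESRP2, splicing factors of epithelial cells, lay lower in both APC shRNA libraries. ESRP1 had 45 and 39 against 31 and 28 (limma adjusted p = 0.0866), and ESRP2 had 29 and 32 against 23 and 21 (adjusted p = 0.0736). ELF3 had 33 and 36 against 38 and 44, and GRHL2, an activator of CDH1, had 14 and 15 against 18 and 19 (adjusted p = 0.0791). The repressors SNAI2, ZEB1, ZEB2, TWIST1 and TWIST2 and the mesenchymal genes VIM and FN1 were listed at 0 in every library. SNAI1, a repressor of CDH1 that binds E-boxes of the form shown above, had values of 1 and 1 in NonS libraries and of 6 and 7 in APC shRNA libraries. It was picked after its values were seen, lies below the mean of 10, and had a log2 difference of 1.90 in the wider fit (SE 0.09, adjusted p = 0.00877). This call too rests on low rounded values.

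Regulators of CDH17 and of the intestinal state formed a list of 8 genes, of which 7 were above 0 and 2 were tested. Neither was called, against 4.33% of all genes tested called higher and 3.7% called lower. HNF4A had values of 19 and 17 in NonS libraries and of 13 and 11 in APC shRNA libraries (log2 difference -0.55, SE 0.12, limma adjusted p = 0.0829). GATA6 had 8 and 9 against 9 and 12, with overlap. CDX1 and CDX2, intestinal homeobox factors picked after their values were seen, went opposite ways: CDX1 had 2 and 2 against 0 and 0, and CDX2 had 0 and 0 against 2 and 4. In the wider fit CDX1 was called lower (limma adjusted p = 0.000106), as were 4.02% of all genes there, and CDX2 was not called (adjusted p = 0.0947). Values of both lie at the lowest steps of the scale. The study's own comparison on read counts lists CDX1 as lower at its thresholds (fold over 4, adjusted p under 0.01). Among the colon epithelium markers 8 were tested, of which 2 lay wholly above NonS (33% of all genes tested), 2 lay wholly below (27.5% of all) and 4 overlapped. KRT18, a keratin of simple epithelia, had 1550 and 1796 in NonS libraries and 2061 and 2083 in APC shRNA libraries, and VIL1 (villin) had 29 and 31 against 39 and 35, neither of them called. One of the 8 was called (3.7% of all genes tested were called lower): LGALS4 (galectin-4), with 557 and 646 in NonS libraries and 175 and 147 in APC shRNA libraries, fell by 1.90 on the log2 scale (limma adjusted p = 0.0423). Whether the lower LGALS4 and the lower values of CDH1, CDH17, CLDN2 and CLDN7 are related was not tested.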

How the data were processed

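The authors trimmed and filtered 50-base single reads, mapped them with TopHat2 to human genome assembly 38, counted them per gene with htseq-count on GENCODE v29 and compared groups with DESeq2 (the authors' notes name version 1.4.1, bcl2fastq 2.19.0.316 and hg19). The library kit is stranded, but the strand option of the counting is not given in the sources used here, so antisense overlaps cannot be separated. The values deposited by the authors are whole numbers, used here as a score. Their further scaling is not stated, and the length used to examine it is the longest transcript. The table of the authors' own comparison (a mean, a fold change and an adjusted p) was not used in any test here.

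The test was limma 3.58.1 (R 4.3.3) with lmFit and trended eBayes on log2(value + 1), for genes whose mean reached 10, with condition as the only term and an adjusted p under 0.05. Count models were not used on these scores. The script was tested on simulated data. With limma on these scores, the study's thresholds (fold over 4, adjusted p under 0.01) gave 0 calls. The smallest adjusted p in limma over all genes tested was 0.0423, so no gene could pass them. The study reports genes both higher and lower at these thresholds from its own comparison, which was not repeated here. P-values measure the spread between 2 libraries per condition. Alternatives covered scaling, filters on low values, pseudocounts of 0.1 and 5, moderation, loess corrections for GC content and length, a replicate block and each library left out. Shares were compared with exact permutation tests in scipy 1.17.1. Positions are from GENCODE v29 (GRCh38) and sequences from RefSeq (GRCh38.p14).

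The members and lists were chosen with earlier results of these data known. Named are the 10 members, genes of each list that passed, and up to 4 per list with the highest mean, except a few that are not reported here. The genes most like a member were to be named for members that passed, and none did.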

Additional observations from a re-analysis of the deposited data

How the results depend on the processing

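Over all alternatives 114 of 119 comparisons of the 7 tested members kept their direction and their side of the threshold. Many of these could not change in full. Filters, moderation settings and the replicate block alone leave a log2 difference as it is, so they bear on the threshold only. Fits with 1 library left out bear on direction only. The count is therefore no measure of robustness. The log2 difference of TJP1 ranged from -0.539 to 0.046 with 1 library left out and was above 0 only without APC shRNA II (-0.12 without NonS I, -0.37 without NonS II, -0.54 without APC shRNA I). Leaving out 1 library also moved these log2 differences by over 1.5 times: CLDN2 to -0.29 without APC shRNA II, CLDN3 to 0.027 without NonS I and 0.44 without NonS II, CLDN4 to 0.14 without NonS I, 0.19 without APC shRNA II and 0.44 without NonS II, and F11R to 0.053 without NonS I, 0.080 without APC shRNA II and 0.25 without NonS II. The other 4 changes came from the replicate block with GC content correction, which in limma called 1 member higher (CLDN4, log2 difference 0.20, adjusted p = 0.0443) and 3 lower (CLDN2, -0.52, adjusted p = 0.0259; CLDN7, -0.50, adjusted p = 0.00641; CDH1, -0.45, adjusted p = 0.00999). The labels give the conditions the same replicate numbers without saying what they mark. Replicate differences correlated between conditions across genes (r = 0.724), which is only a hint of pairing from the data. The replicate block alone called 0 members in limma (CDH1 adjusted p = 0.0507, CLDN7 adjusted p = 0.0515), 2 genes of the other junction lists higher and 1 lower, and 523 and 500 of all genes, and with GC correction 5 and 7 list genes and 1222 and 1256 of all genes.

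Of all genes, 233 were called higher and 199 lower. Called higher and lower were 396 and 340 with upper-quartile scaling, 368 and 352 with robust moderation, 441 and 462 with GC correction, 354 and 327 with length correction, and 952 and 515 with any total of at least 1. Median-of-ratios scaling called 305 lower, equal totals called 369 lower, and at least 10 in every library called 139 higher. Without any 1 library 0 and 0 were called in limma, where 1 residual degree of freedom is left and the lone library is assumed to vary like the others. In the other junction lists, 2 genes were called higher with median-of-ratios or upper-quartile scaling, equal totals, robust moderation, GC correction or length correction, and 1 with any total of at least 1. GC correction called 3 lower. AMOTL2 passed in 8 of 12 alternatives and PKP4 in 8 of 13 (adjusted p 0.003 to 0.102 and 0.00428 to 0.0813). Causes of these shifts were not tested. The planned fit with a count model was not run, since it needs counts. Of 28 comparisons of share differences with 1 library left out 0 reversed. This was fixed in advance, because none of these shares overlapped between conditions. The shares of CDH1 and CDH17 in their sum also mirror each other. The CLDN1 difference was -0.527 points without NonS I and -1.59 without NonS II, the CLDN3 difference was 2.49 points without NonS I, and the CLDN2 difference was -1.81 points without APC shRNA II.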

Other observations

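Genes of cell polarity, which places the tight junction, are given here after their values were seen. PRKCI, an atypical protein kinase C of the PAR complex, had values of 15 and 11 in NonS libraries and of 10 and 6 in APC shRNA libraries (log2 difference -0.66, SE 0.31, limma adjusted p = 0.236). Its partner PARD6A had 7 and 7 against 9 and 10, while PARD6B had 3 and 3 against 2 and 3. PARD3 had 10 and 11 against 8 and 9, and CRB3, of the Crumbs complex, had 12 and 14 against 13 and 13. PLEKHA7 and AFDN, which join cadherin and nectin complexes to the cytoskeleton, had 15 and 18 against 11 and 11 and 20 and 21 against 16 and 14 (adjusted p = 0.0802 and 0.0818). PARD6A, PARD6B and PARD3 did not reach the mean of 10 and were not tested in the main fit. None of the polarity genes given here was called in the main or the wider fit. In the main fit 4.33% of all genes tested were called higher and 3.7% lower. PRKCZ, PATJ and MPP5, from the same list and below that mean, overlapped between conditions.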
